A study of Mus musculus with 4 samples.

Results

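The integrin chains of T cells were followed through 10 genes, the α chains Itgae (which encodes CD103), Itga1, Itga2, Itga4, Itgal and Itgav and the β chains Itgb1, Itgb2, Itgb7 and Itgb8. They were taken by gene name from the spots that are no controls, which gave 10 of 36876 gene names and 30 of 56310 probes, each probe on a single spot. RNA was measured on 4 single-colour arrays with probes of 60 bases, 2 with RNA labelled Junbfl/flCd4-Cre and 2 labelled Control (genotype Junbfl/fl). Junb encodes JunB, which takes part in AP-1 transcription factors; in the Junbfl/flCd4-Cre mice its floxed alleles meet a Cre recombinase under the Cd4 promoter, active in T cells, and the Control mice carry the floxed alleles alone. All mice were C57BL/6. Sorted naive CD4+ T cells of both genotypes had been cultured for 3 days under conditions for regulatory T (Treg) cells. The plates were coated with anti-CD3 (1 μg/ml), and the medium held anti-CD28 (0.5 μg/ml), TGF-β1 (5 ng/ml, recombinant human) and antibodies against IFN-γ and IL-4 (5 μg/ml of each). The series set out to describe Treg cells of the conditional Junb mice.

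Integrins are adhesion receptors, each made of an α and a β chain that reach the cell surface as a pair. In T cells αLβ2 (LFA-1) binds ICAMs on other cells, α4β1 and α4β7 bind VCAM-1 and the gut vessel receptor MAdCAM-1, α1β1 and α2β1 bind collagen, αvβ8 can release active TGF-β, and αEβ7 binds E-cadherin of epithelium. TGF-β is known to raise Itgae in T cells, and CD103 marks T cells that stay in tissues and a subset of Treg cells.

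The label on RNA extraction names colon, whereas cultured Treg cells are named by the others. All 9 T cell markers were well above background on every array, and so were all 6 Treg markers. Of the T cell markers Cd2 (log2 difference -1.33) and Thy1 (-0.98) were called lower, and of the Treg markers Ctla4 (-1.47) was called lower and Ikzf2 (4.56) higher. Foxp3, which defines Treg cells, read 2.49 and 5.78 in Junbfl/flCd4-Cre, against 8.51 and 8.99 in Control (-1.20, limma adjusted p = 0.133), and Il2ra gave -1.67 (adjusted p = 0.0653). Of 10 markers of colon epithelium, 5 and 5 were detected on the Junbfl/flCd4-Cre arrays, against 4 and 3 on the Control arrays. Cdh1, Krt19, Krt20, Muc2 and Vil1 were above background on none, and Slc26a3 was at least 8.44-fold higher in Junbfl/flCd4-Cre. Relative signals (defined below) summed over 7 B cell markers were 7.38 and 4.94 in Junbfl/flCd4-Cre, against 3.64 and 1.44 in Control. Of 6 tested Ms4a1 and Ebf1 were called higher. Over 11 myeloid or dendritic cell markers they were 459 and 429, against 268 and 263. Of 8 tested 0 were called by limma and 4 had an unadjusted p under 0.05, which 41.4% of all genes passed. Siglech by itself read 398 and 397, against 242 and 245, and Adgre1 and Clec9a were above background on no array. Over 7 stroma markers they were 17.1 and 17.6, against 28.5 and 23.9, of which Acta2 by itself read 16.4 and 17.1, against 28.3 and 23.7 (adjusted p = 0.0819). With 4 stroma markers tested, Dcn and Col1a1 were called higher, and Pdgfra and Pdgfrb were above background on none. Beside the marker calls stand 7.03% of all genes called higher and 1.43% called lower. The part of such cells in the results was not tested, and in bulk RNA fewer cells of a type and less RNA per cell cannot be told apart. Nothing in the labels states whether the arrays of a genotype stem from different mice or cultures, so p-values measure no more than array-to-array spread, possibly technical.

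Between 59.3% and 66.3% of spots were well above background, and 0 were saturated. Pearson correlations across the 33606 probes tested were 0.978 between the Junbfl/flCd4-Cre arrays, 0.981 between the Control arrays and 0.930 to 0.953 between genotypes. The Junb probe A_55_P2011106 was not well above background on either Junbfl/flCd4-Cre array and was at least 5.71-fold lower there than in Control (limma adjusted p = 0.0396). The brighter Junb probe A_51_P159194, nearer the 3′ end, gave processed signals of 1053 and 10078 in Junbfl/flCd4-Cre, against 9791 and 9072 in Control. By that probe the array labelled Junbfl/flCd4-Cre 2 read like Control. Which bases the loxP sites flank is not known here, so the genotypes are those of the labels throughout.

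The probes on which the results turn are shown 5′ to 3′, with mm9 positions as the scanner files give them. The files assign the first Itgae probe, across a junction at chr11:72959105-72960563 (plus strand), to transcript variant 1. They assign the second, across a junction at chr11:72945236-72946221, to variants 1 and 2 alike:
Itgae, A_51_P352076: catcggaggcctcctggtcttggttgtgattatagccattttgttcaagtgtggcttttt
Itgae, A_52_P549279: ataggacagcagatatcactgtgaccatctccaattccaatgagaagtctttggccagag
The Itga1 reference transcript (NM_001033228) has 2 probes, at bases 683 and 3710 of the transcript, which cross junctions at chr13:115821387-115825525 and chr13:115756765-115758419 (minus strand). They are shown because the first was detected on every array and the second on none:
Itga1, A_52_P518922: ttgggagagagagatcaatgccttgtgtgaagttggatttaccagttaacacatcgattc
Itga1, A_52_P459929: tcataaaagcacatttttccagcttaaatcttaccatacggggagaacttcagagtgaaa
The only Itga2 probe, at chr13:115626714-115626773 (minus strand), was above background on no array:
Itga2, A_51_P441983: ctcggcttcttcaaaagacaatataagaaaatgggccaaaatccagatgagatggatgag
Itgb1 has a probe to its reference transcript (NM_010578) at chr8:131250081-131255976 and a probe to the β1D form (U37029) known from striated muscle at chr8:131250931-131255949, both on the plus strand. Capitals mark the 23 bases that both hold:
Itgb1 reference, A_66_P113059: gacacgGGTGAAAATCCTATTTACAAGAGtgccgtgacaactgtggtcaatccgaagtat
Itgb1 β1D, A_52_P69236: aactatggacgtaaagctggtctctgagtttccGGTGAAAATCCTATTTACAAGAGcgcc

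Each probe's processed signal was divided by the 75th percentile of its array, and this relative signal is given below for single arrays. Levels were compared between arrays for the same probe; different probes were set together only to pick each chain's highest-reading probe, in the marker sums and in the chain ratios. Tests covered probes that were well above background in each array of a genotype, Junbfl/flCd4-Cre or Control, and a probe was called at an adjusted p under 0.05 over all probes tested. This left 19 of the 30 integrin probes, from 9 of the 10 genes, and 17 of the 30 were well above background on all 4 arrays. Of the 19, 3 were called higher in Junbfl/flCd4-Cre, both Itgae probes and an Itga1 probe, while 5.53% of all probes were called higher and 6.78% either way. By limma 0 were called lower, as were 1.25% of all probes. At an unadjusted p under 0.05 there were 13, 7 higher and 6 lower, and 38.2% of all probes. The genotypes were apart for 17 of the 19, and for 72.2% of all probes tested. The median log2 difference of the 19 was 0.41, and that of all probes -0.01.

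**Figure D1:**
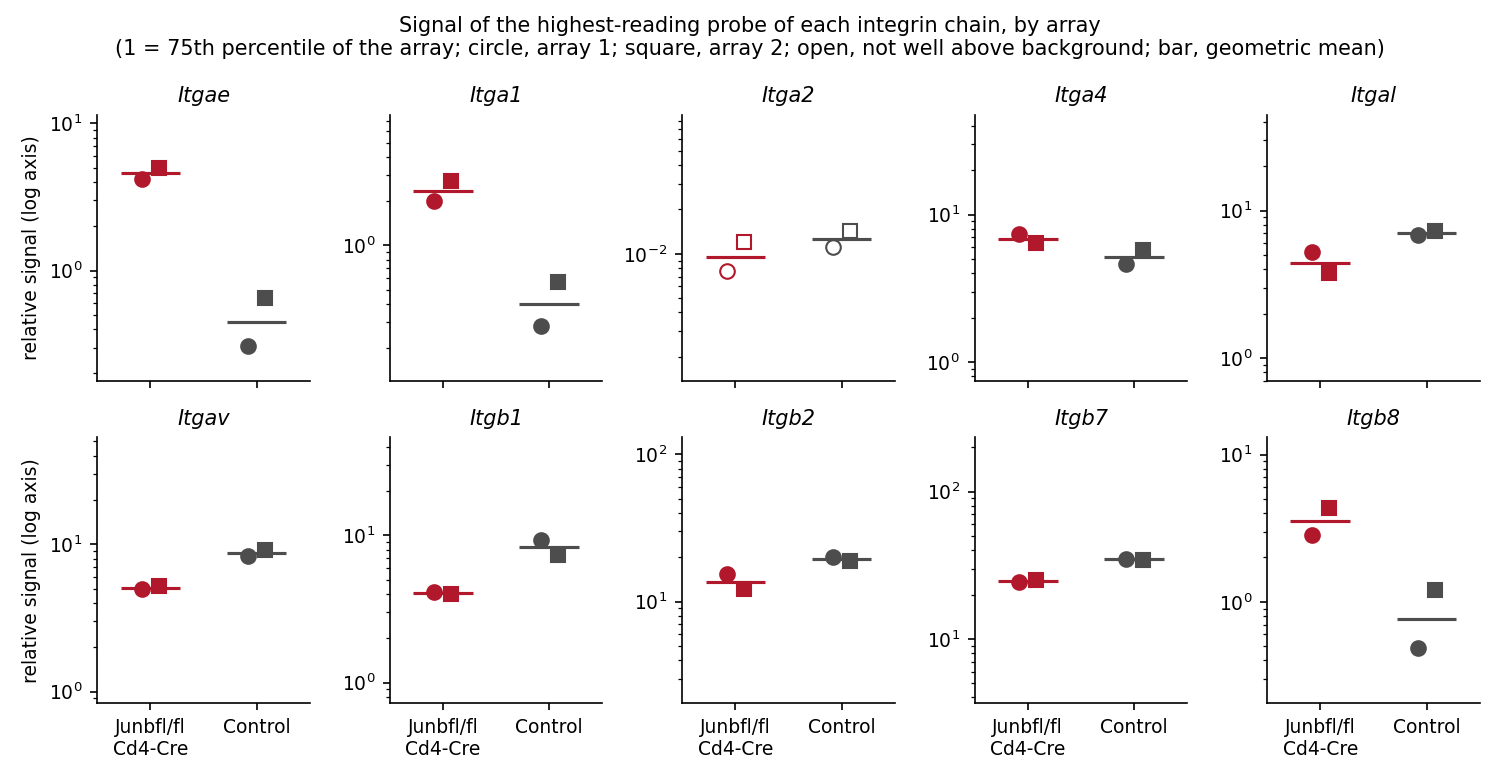
Relative signal (1 is the 75th percentile of the array, log axis) of the highest-reading probe of each of the 10 integrin chains on each array, Junbfl/flCd4-Cre left and Control right, with bars at geometric means. Itgae, Itga1, Itga4 and Itgb8 read higher on both Junbfl/flCd4-Cre arrays than on either Control array, Itgal, Itgav, Itgb1, Itgb2 and Itgb7 read lower, and Itga2 (open symbols) was not well above background on any.

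Itgae rose by both probes. The variant 1 probe read 4.21 and 4.96 in Junbfl/flCd4-Cre, against 0.306 and 0.650 in Control. The Junbfl/flCd4-Cre arrays lay close together and far above the Control arrays, which differed more from each other. The log2 difference was 3.36 ± 0.41 (SE, n = 2 each), or 10.2-fold (limma adjusted p = 0.0351). The probe to both variants read 0.533 and 0.596 in Junbfl/flCd4-Cre, against 0.0590 and 0.114 in Control. Its log2 difference was 2.78 ± 0.36, or 6.88-fold (adjusted p = 0.0370), and Control 2 was again the higher Control array. In the authors' deposited table, where 2.41% of rows pass the same threshold, the log2 differences were 2.99 (adjusted p = 0.0344) and 1.42 (adjusted p = 0.0420). With quantile normalization they were 3.39 (adjusted p = 0.0485) and 2.45 (adjusted p = 0.0506). With normexp background correction followed by quantile normalization (called normexp below) they were 2.49 (adjusted p = 0.0362) and 0.90 (adjusted p = 0.0501). Both calls were lost when any single array was left out, as was every other call, so the loss is not particular to Itgae. The log2 difference of the variant 1 probe was then 2.81 without Control 1 and 3.90 without Control 2.

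Of the 5 Itga1 probes 2 were tested, both read higher in Junbfl/flCd4-Cre, and 1 was called. That probe (A_52_P518922) read 1.99 and 2.74 in Junbfl/flCd4-Cre, against 0.282 and 0.562 in Control. The genotypes were well apart, with Control 2 the higher Control array. The log2 difference was 2.55 ± 0.41, or 5.86-fold (adjusted p = 0.0484). Quantile normalization (2.54, adjusted p = 0.0612), normexp (1.71, adjusted p = 0.0630) and the authors' deposited table (2.12, adjusted p = 0.0545) gave the same direction without a call. It was not called without any single array either, as no probe was (log2 difference 2.05 without Control 1 to 3.05 without Control 2). A probe to the cDNA clone AK137169 read 0.200 and 0.387 in Junbfl/flCd4-Cre, against 0.0285 (not well above background) and 0.0718 in Control, a log2 difference of 2.62 ± 0.59 (adjusted p = 0.0716). The AK137169 probe entered the test only through Junbfl/flCd4-Cre, where it was high. It is in the dimmest of 5 equal classes by mean signal, whose median log2 difference was 0.68. Its own was 2.13 with quantile normalization, 0.49 with normexp and 0.85 in the authors' deposited table. The other 3 probes were not tested. Those to the clones AK029105 and AK169964 were well above background on Junbfl/flCd4-Cre 1 alone, and the second probe of the reference transcript, shown above, on no array.

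Itga2, the other collagen-binding chain, read 0.00764 and 0.0120 in Junbfl/flCd4-Cre and 0.0111 and 0.0143 in Control. On no array was it well above background, so only its detection can be stated.

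Itga4, whose product pairs with β1 or β7, had 6 probes, of which 4 were tested and none was called. The highest-reading, to the reference transcript NM_010576, gave 7.34 and 6.44 in Junbfl/flCd4-Cre, against 4.61 and 5.79 in Control. The genotypes did not overlap, but the log2 difference of 0.41 ± 0.20 did not pass (adjusted p = 0.199), and it became -0.12 with scaling to the median. Probes to the transcripts ENSMUST00000155105 and ENSMUST00000141094 gave 0.95 ± 0.20 (adjusted p = 0.0656) and 1.31 ± 0.30 (adjusted p = 0.0730), also without overlap. The second reference probe, above background on 3 arrays, gave 0.22 ± 0.42 with overlapping genotypes (adjusted p = 0.711). The remaining 2 probes were above background on 2 arrays and on 1 array.

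Itgal encodes αL, the α chain of LFA-1. The reference probe (NM_008400, chr7:134477160-134477219) read 5.22 and 3.75 in Junbfl/flCd4-Cre, against 6.88 and 7.29 in Control. It was lower on both Junbfl/flCd4-Cre arrays, which differed more from each other than the Control arrays did (log2 difference -0.68 ± 0.22, adjusted p = 0.113). The other 2 probes, both to the clone AK154115, read the other way, with 0.49 ± 0.30 (adjusted p = 0.276) and 0.99 ± 0.41 (adjusted p = 0.16). They have 56 of 60 bases in common and are close to a single reading. With normexp they gave 0.06 and 0.12, against -0.42 for the reference probe. No direction held across the 3 probes, whose mean gave 0.27 (adjusted p = 0.517).

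Itgav encodes αv. Its reference probe (NM_008402) read 4.96 and 5.19 in Junbfl/flCd4-Cre, against 8.39 and 9.16 in Control. Both genotypes were tight and apart, yet the log2 difference of -0.79 ± 0.15 missed the threshold (adjusted p = 0.0618). A probe to ENSMUST00000148256 gave -0.76 ± 0.21 (adjusted p = 0.0894) and a probe to ENSMUST00000155521 gave -0.09 ± 0.25 with overlapping genotypes (adjusted p = 0.802). The last Itgav probe was above background on Control 1 alone.

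Itgb1 encodes the β1 chain that α1, α2, α4 and αv share. Its highest-reading probe (A_55_P2902886), also to the reference transcript, read 4.16 and 3.97 in Junbfl/flCd4-Cre, against 9.35 and 7.37 in Control. The other reference probe, shown above, read 0.610 and 0.666 in Junbfl/flCd4-Cre, against 1.87 and 1.30 in Control. Both were lower in Junbfl/flCd4-Cre without overlap, by log2 differences of -1.03 ± 0.19 (adjusted p = 0.0577) and -1.29 ± 0.24 (adjusted p = 0.0578), outside the threshold. The β1D probe read 0.00906 and 0.0211 in Junbfl/flCd4-Cre and 0.00835 and 0.0171 in Control, on no array well above background.

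Itgb2 and Itgb7, the β chains of LFA-1 and of αEβ7 and α4β7, have a single probe each. Itgb2 read 15.4 and 12.2 in Junbfl/flCd4-Cre, against 20.2 and 18.8 in Control. Itgb7 read 24.2 and 25.0 in Junbfl/flCd4-Cre, against 35.2 and 34.5 in Control, with the arrays of each genotype close together. Both were lower without overlap, but neither was called, with log2 differences of -0.51 ± 0.19 (adjusted p = 0.135) and -0.50 ± 0.15 (adjusted p = 0.0970). Over probes in 5 equal classes by mean signal the median log2 difference was 0.68 in the dimmest class and -0.35 in the brightest. The brightest class holds both of these probes and the highest-reading probes of Itga4, Itgal, Itgav and Itgb1. With quantile normalization Itgb7 gave -0.18.

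Itgb8, whose product pairs with αv, had 4 probes that disagreed on detection. The probe to ENSMUST00000151023 (chr12:120426719-120426778, minus strand) read 2.85 and 4.36 in Junbfl/flCd4-Cre, against 0.486 and 1.19 in Control. It was higher on both Junbfl/flCd4-Cre arrays, with a log2 difference of 2.21 ± 0.52, or 4.63-fold, that was not called (adjusted p = 0.0746). The probe to the reference transcript NM_177290 and that to ENSMUST00000137804 were above background on no array, and that to ENSMUST00000026360 on Junbfl/flCd4-Cre 1 alone.

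**Figure D2:**
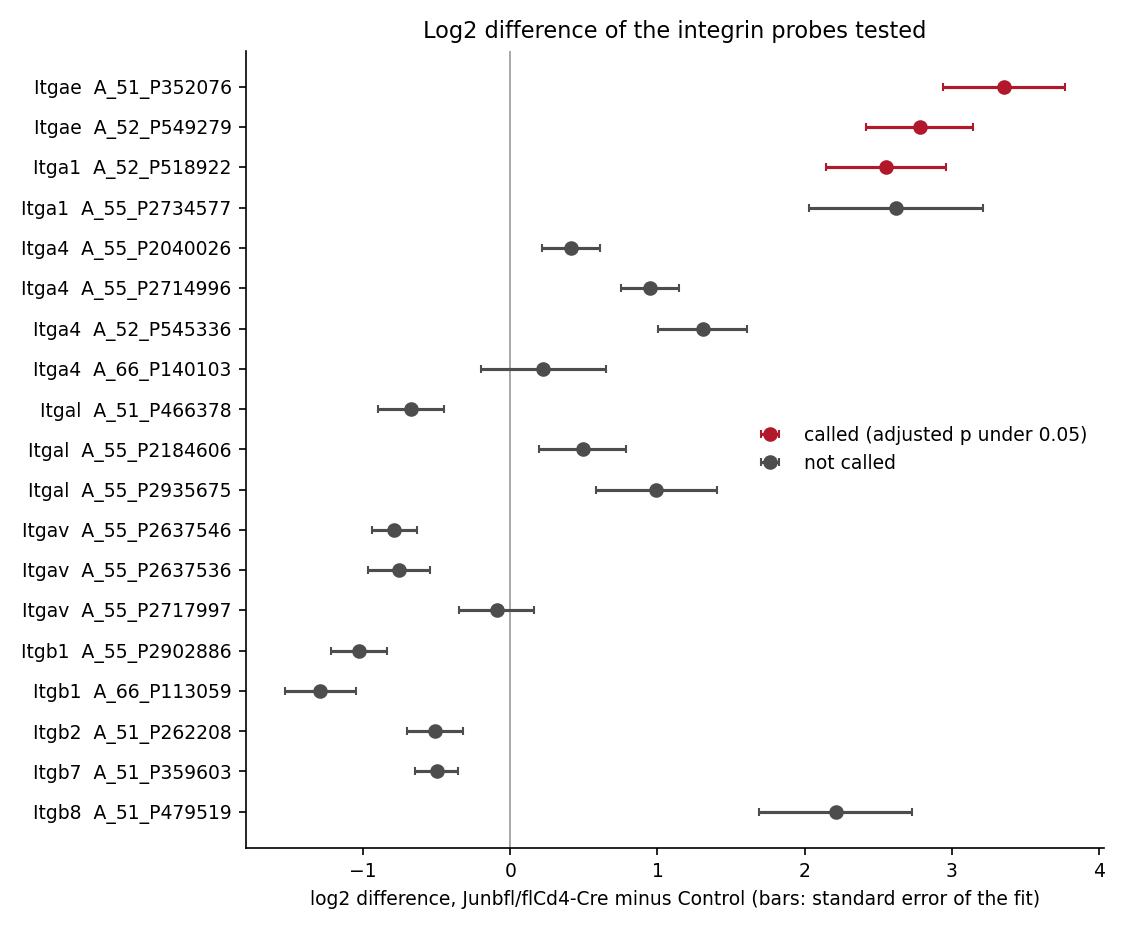
Log2 difference (Junbfl/flCd4-Cre minus Control) of the 19 integrin probes tested, points with standard errors of the fit (n = 2 arrays each). The 3 called probes, in red, are those of Itgae (3.36 and 2.78) and an Itga1 probe (2.55), and the Itgb1, Itgb2 and Itgb7 probes lie between -1.29 and -0.50.

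Which receptors the cells could form was read from 8 known pairs, through the highest-reading probe of each chain. For 7 pairs, αEβ7, α4β7, α4β1, α1β1, αvβ1, αvβ8 and αLβ2, both chains were well above background on both arrays of each genotype. The last, α2β1, lacked Itga2 signal in Junbfl/flCd4-Cre and in Control. Among these 8 the set of pairs with detected RNA was thus the same in both genotypes, and protein was not measured. For αvβ8 detection rests on the 1 Itgb8 probe that was detected. For α1β1 in Control it rests on the Itga1 probe at base 683, the only one of 5 detected on both Control arrays. The AK137169 probe was also detected on both Junbfl/flCd4-Cre arrays. The other probe to the Itga1 reference transcript was above background on no array.

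The balance of chains was then read within each of the 7 pairs, through the highest-reading probe of each chain. The log2 ratio of α to β signal was taken within each array, where any factor on the whole array cancels, and the mean of the Control arrays was set to 0. For Itgae over Itgb7 it was 3.76 and 3.95 in Junbfl/flCd4-Cre, against -0.56 and 0.56 in Control, a mean difference of 3.86 or 14.5-fold. For Itga1 over Itgb1 it was 3.32 and 3.84 in Junbfl/flCd4-Cre, against -0.67 and 0.67 in Control, a mean difference of 3.58 or 12.0-fold. In both pairs the α chain was called higher and the β chain read lower without a call.

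Itgav over Itgb8 went the other way, with -2.73 and -3.27 in Junbfl/flCd4-Cre, against 0.59 and -0.59 in Control. Itga4 differed less, by 1.44 over Itgb1 and 0.91 over Itgb7, without overlap. Itgal over Itgb2 differed by -0.17, and Itgav over Itgb1 by 0.24 with overlapping genotypes. With 2 arrays against 2 a two-sided exact permutation test cannot go below p = 0.333, the value for each of the 6 pairs without overlap. The difference for Itgae over Itgb7 was 3.57 with quantile normalization, 2.67 with normexp and 3.22 in the authors' deposited table. For Itga1 over Itgb1 it was 3.34 with quantile normalization and 2.43 with normexp. For Itgav over Itgb8 it was -2.82 and -2.16, and -2.54 in the authors' deposited table. Itga4 over Itgb7 was 0.83 and 0.76, and 0.45 in that table.

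**Figure D3:**
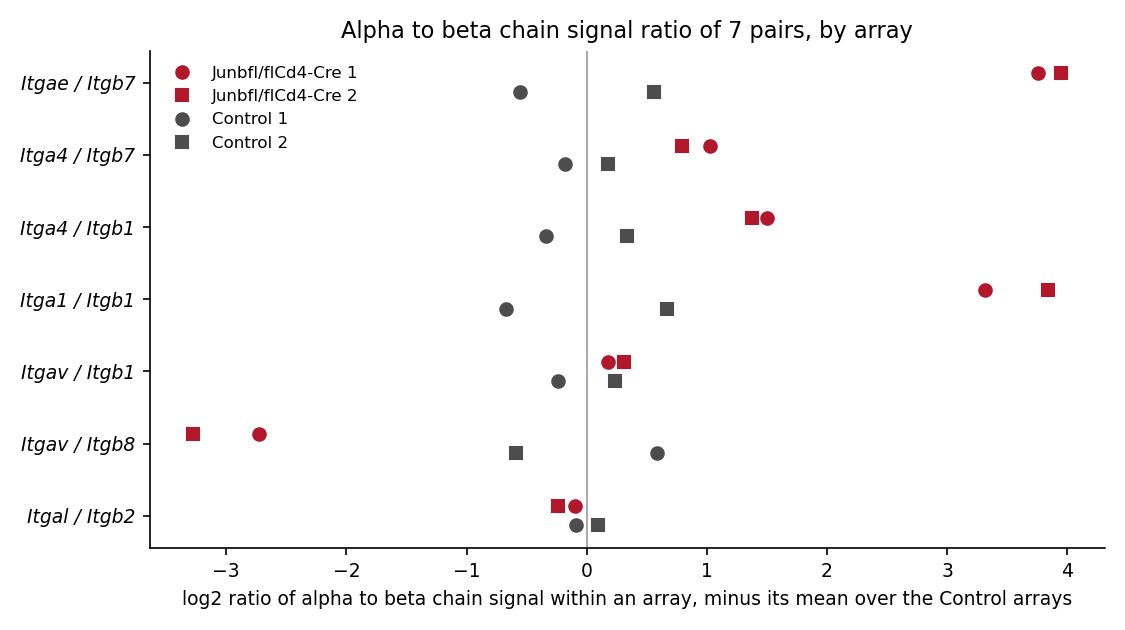
Log2 ratio of α to β chain signal within each array for the 7 detected pairs, minus its mean over the Control arrays, Junbfl/flCd4-Cre in red above Control in grey. Itgae over Itgb7 and Itga1 over Itgb1 lie at 3.32 to 3.95 on the Junbfl/flCd4-Cre arrays and within 0.67 of 0 on the Control arrays, and Itgav over Itgb8 lies at -2.73 and -3.27.

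Whether the lower chains were called depended on the scaling. Scaling to the median of each array in place of its 75th percentile moved the median of all probes to -0.54 and the share of probes called to 38.6%, of which 18.5% were higher, against 81.6% of the calls with the 75th percentile. There 12 integrin probes were called, 5 higher (7.16% of all probes were) and 7 lower (31.4% of all probes were). The 5 were both Itgae probes, 2 of Itga1 and the Itgb8 probe, and the 7 were 2 each of Itgav and Itgb1 and 1 each of Itgal, Itgb2 and Itgb7. Relative to the median of all probes, which makes these scalings equal by construction, the log2 differences were 3.37 for the Itgae variant 1 probe, 2.56 for Itga1, 2.22 for Itgb8, -1.02 for Itgb1 and -0.49 for Itgb7. With quantile normalization (1.93% of all probes called) and with normexp (1.01%) the Itgae variant 1 probe was the 1 integrin probe called.

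**Figure D4:**
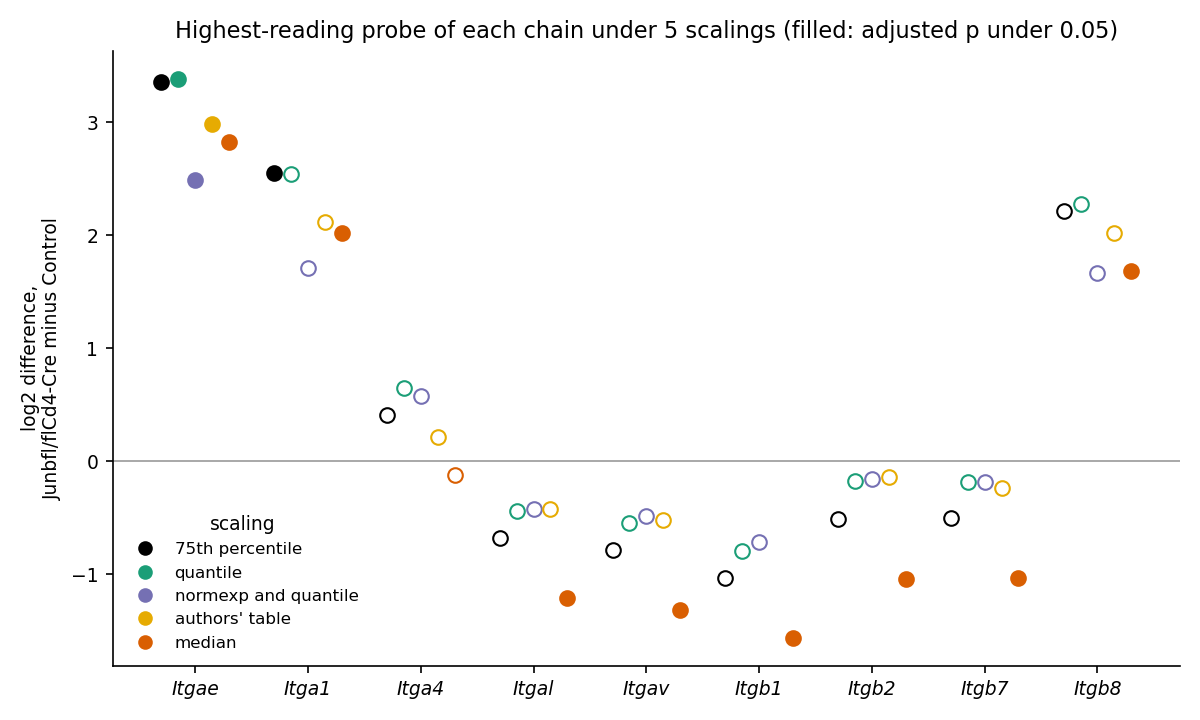
Log2 difference (Junbfl/flCd4-Cre minus Control) of the highest-reading probe of the 9 detected chains under 5 scalings, filled where the adjusted p was under 0.05 (the authors' table lacks this Itgb1 probe). Itgae was called under all 5 and Itga1 under 2. Itgb8 (higher) and Itgal, Itgav, Itgb1, Itgb2 and Itgb7 (lower) were called with scaling to the median alone, where Itga4 changed sign to -0.12.

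The genes around the integrins were read through 7 lists, with the brightest tested probe of each gene. Of 119 genes 96 were tested, and 7 were called higher and 5 lower, while 8.46% of all genes were called (7.03% higher, 1.43% lower). Their median log2 difference was -0.18, that of all genes 0.01. The 12 called genes had the same direction with median scaling, quantile normalization and normexp, where 10, 4 and 2 of them were also called. Among them Col1a1, Lims2 and Eomes were well above background in Junbfl/flCd4-Cre alone and Vcam1 in Control alone. These entered the test only through the genotype where they were high. So did Lamb1 and Tns3, which were not well above background on Control 2. For Col1a1, Lims2, Eomes and Vcam1 the adjusted p belongs to the fitted difference from readings at background, not to the "at least" fold beside it. Sizes of dim genes depended on the processing. With normexp the log2 differences of Lamb1 (0.45), Tns3 (0.50), Prdm1 (0.94) and Src (-0.40) were smaller than the values given below. Those of Eomes (0.30), Col1a1 (0.145), Lims2 (0.066) and Vcam1 (-0.30) were smaller even than the "at least" folds below. With quantile normalization these were 2.32, 2.05, 0.54 and -3.19. The "at least" folds belong to the relative signals defined above and are no bounds under other processing.

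Of 27 ligands and counter-receptors 16 were tested, with 2 called higher and 2 lower and a median of 0.72 (0.19 with scaling to the median, 0.30 with quantile normalization and 0.06 with normexp). Lamb1, a laminin chain, read 0.275 and 0.234 in Junbfl/flCd4-Cre, against 0.0469 and 0.0340 (not well above background) in Control, a rise of 2.67 ± 0.23 in log2 units (adjusted p = 0.0297). Col1a1, a chain of type I collagen, was at least 1.88-fold higher (adjusted p = 0.0401). Lamc1, another laminin chain, read 0.462 and 0.396 in Junbfl/flCd4-Cre, against 0.908 and 0.976 in Control, and its log2 level fell by 1.14 ± 0.16 (adjusted p = 0.0425). Vcam1, which encodes a ligand of α4β1, was above background in Control alone and was at least 1.56-fold lower in Junbfl/flCd4-Cre (adjusted p = 0.0353). Col1a1 is also among the stroma markers given above, whose part was not tested. Cdh1, which encodes the E-cadherin ligand of αEβ7, and Madcam1 were above background on no array.

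Of 18 regulators that link TGF-β to Itgae 17 were tested, with 3 called higher and 1 lower. Prdm1, which encodes Blimp-1, a factor of tissue-resident T cells, read 0.525 and 0.710 in Junbfl/flCd4-Cre, against 0.0936 and 0.0823 in Control, a rise of 2.80 ± 0.22 in log2 units (adjusted p = 0.0290). Eomes, a T-box factor also among the NK cell markers, was at least 4.53-fold higher (adjusted p = 0.0353), while of the other 4 NK markers Klrb1c was above background on Junbfl/flCd4-Cre 2 alone, Klra8 on Control 2 alone and Ncr1 and Klre1 on no array. Tgif1, a repressor of SMAD targets, read 28.8 and 27.4 in Junbfl/flCd4-Cre, against 13.2 and 13.8 in Control, a rise of 1.06 ± 0.14 (adjusted p = 0.0387). Nfatc2, a calcium-activated factor, read 12.5 and 10.8 in Junbfl/flCd4-Cre, against 26.2 and 25.5 in Control, and its log2 level fell by 1.15 ± 0.16 (adjusted p = 0.0395). Neither the TGF-β receptors nor Smad2, Smad3, Smad4 or Smad7 were called, with 0.55 ± 0.17 for Tgfbr2 (adjusted p = 0.0953) and -0.57 ± 0.17 for Tgfbr1 (adjusted p = 0.0925). The list's median was -0.20, and 0.03 with normexp.

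Of 27 focal adhesion genes, which tie integrins to actin, 25 were tested, with 2 called each way and a median of -0.27. Tns1, a tensin adaptor, read 1.01 and 1.07 in Junbfl/flCd4-Cre, against 6.17 and 4.69 in Control, and its log2 level fell by 2.37 ± 0.20 (adjusted p = 0.0297). Its relative Tns3 went the other way, with 0.345 and 0.270 in Junbfl/flCd4-Cre, against 0.0767 and 0.0393 (not well above background) in Control, a rise of 2.47 ± 0.39 (adjusted p = 0.0477). The kinase gene Src fell by 1.33 ± 0.14 (adjusted p = 0.0321), and the adaptor gene Lims2 was at least 2.18-fold higher (adjusted p = 0.0401).

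The lists on integrin activation, other chains and tissue residence held 0 genes called by limma. Of 21 activation genes tested 15 were below 0, with 4 lower and 2 higher at an unadjusted p under 0.05, which 41.4% of all genes passed. Fermt3, the kindlin of blood cells, gave -0.87 ± 0.16 (adjusted p = 0.0576) and Rap1a, a switch for integrin activation, -0.59 ± 0.15 (adjusted p = 0.0766). Of the other α chains 7 of 12 were tested (2 higher and 1 lower at an unadjusted p under 0.05), with Itga11 at least 1.88-fold higher (adjusted p = 0.0675) and Itga7 at 1.16 ± 0.32 (adjusted p = 0.0853). Of the other β chains 2 of 4 were tested (1 higher at an unadjusted p under 0.05), Itgb3 at 0.78 ± 0.24 (adjusted p = 0.0963) and Itgb4 at -0.32 ± 0.22 (adjusted p = 0.320). Of 8 residence genes 0 passed an unadjusted p of 0.05. Ccr9, a gut homing receptor, read 2.22 and 0.110 in Junbfl/flCd4-Cre, against 0.0645 and 0.0586 in Control, so its log2 difference of 3.01 ± 1.56 rests on Junbfl/flCd4-Cre 1 (adjusted p = 0.216). The medians of the activation (-0.21), other α (0.14), other β (0.23) and residence (0.17) lists changed sign under another scaling, with 0.04 for activation with quantile normalization and -0.39, -0.30 and -0.37 for the others with scaling to the median.

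**Figure D5:**
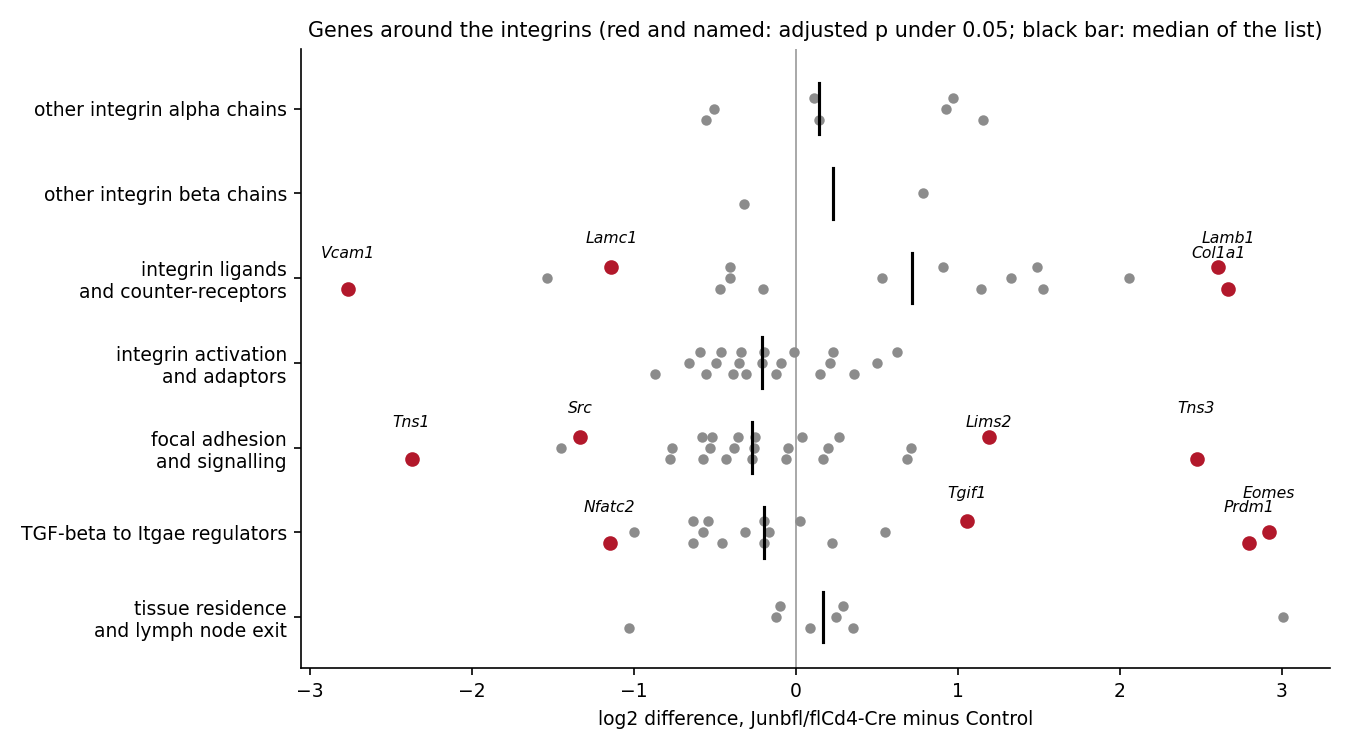
Log2 difference (Junbfl/flCd4-Cre minus Control) of the 96 genes tested in 7 lists around the integrins, each point a gene (the fitted value, also for genes at background in a genotype), with black bars at list medians and the 12 called genes named in red. The medians lie between -0.27 and 0.72, and called genes stand on both sides in the ligand, focal adhesion and regulator lists.

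The genes whose pattern was most like that of Itgae (variant 1 probe) were sought among 19686 genes well above background on every array, by the root mean square distance over the 4 arrays of log2 values centred on the Control mean. The nearest were Ptn, Ccl1, Kcnq1, Tmem52b and Cttnbp2nl, at distances of 0.134 to 0.167, with log2 differences of 3.24 to 3.54. The chemokine gene Ccl1 read 19.1 and 30.1 in Junbfl/flCd4-Cre, against 1.64 and 3.29 in Control. With 4 arrays such likeness is a description.

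The promoters of 7 of the 10 genes, 250 bases before to 50 after the start in RefSeq's GRCm38.p6, were searched on both strands for the AP-1 element TGANTCA. These letters were in 0 of the 7 windows and in 7.81% of the 32851 promoters of that table. The promoters of Itgae, Itgal and Itgb2 were not used.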

How the data were processed

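Sample titles gave the genotype and number of each array. Per the file headers, Agilent Feature Extraction 11.5.1.1 made the deposited scanner files, whose processed intensity has had background subtracted; mean and background intensities and flags stand beside it. The authors' deposited table gives log2 signals, log2 differences, p-values and 2 scores (a moderated t and log odds); the sources used here do not say how its signals were made.

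Flagged spots were left out, spots averaged per probe, and the array's 75th percentile (119 and 101 in Junbfl/flCd4-Cre, 151 and 145 in Control) taken off as log2. limma 3.58.1 (lmFit, eBayes; R 4.3.3) compared genotypes without covariates, with Benjamini-Hochberg adjustment over 33606 probes, or 22475 genes for the lists. Errors are limma's standard errors (n = 2 arrays each, which limits precision). "At least" folds put a dim signal at the array's lowest signal well above background, or its own if higher. Such folds belong to the processing described here and are no bounds under another. An adjusted p printed beside such a fold is that of the fitted difference, not of the bound. Gene names were updated through RefSeq (GRCm38.p6). On data simulated over 33606 probes, 33406 were left unchanged and 50 were moved by each of 3 and 1 (log2), up and down. Of those moved by 3, 44.0% of the raised and 60.0% of the lowered were called, and 0 of 50 at 1 either way. In the data 6.78% of probes were called, so the adjusted threshold was less strict there. The simulated rates are therefore not the power of the fit reported.

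The members and lists were chosen with earlier results of these data known. By rule Junb, every member probe, each called list gene (or up to 2 with the smallest p), the 5 genes nearest to Itgae and defining markers were named; Madcam1, the TGF-β receptors and the SMAD genes were added after their values were seen. A further list gene that the rule names is not reported here. Alternatives were other scalings, background correction, filters, probe summaries, a replicate block, leaving out arrays and the authors' table. Tables and figures used matplotlib 3.10.9, scipy 1.17.1, pandas 2.3.3 and numpy 2.4.6 under Python 3.11.15.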

Additional observations from a re-analysis of the deposited data

How the results depend on the processing

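Against 2277 probes and 3 integrin probes called, scaling to the median called 12972 and 12, quantile normalization 650 and 1, normexp background correction with quantile normalization (normexp below) 338 and 1, and requiring all 4 arrays above background 1377 and 3. Without a filter limma called 0 and 0 (12028 and 11 at an unadjusted p under 0.05). With 1 probe per gene 1901 and 2 were called, with the mean over a gene's probes 2016 and 1 (Itgae), and by the adjusted p in the authors' deposited table, 641 and 2 (both Itgae). Leaving out any 1 array, limma called 0 and 0, with 7315 to 11361 probes at an unadjusted p under 0.05; the array left alone is assumed to vary like the others. Of the list genes, 12 in the report, 41 were called with scaling to the median, 4 with quantile normalization, 3 with normexp and 0 without a filter (by limma). Log2 differences changed sign with scaling to the median for Itga4 A_55_P2040026 (-0.12), Itga4 A_66_P140103 (-0.31) and Itgal A_55_P2184606 (-0.040). Itga4 A_66_P140103 also did with quantile normalization (-0.35) and normexp (-0.060), and ranged over -0.31 to 0.76 when arrays were left out. Itgal A_51_P466378 became 0.27 with the mean over probes, which takes in the AK154115 probes, and Itgav A_55_P2717997 ranged over -0.38 to 0.19 when arrays were left out. None of these was called in the report, and apart from that mean the cause was not tested. Deviations of same-numbered arrays correlated at 0.450, but no label says what a number shares; with the replicate block 8522 probes (25.4%) and 12 integrin probes, 8 higher and 4 lower, were called. A slide block was not run, since all arrays share 1 slide. The alternatives for chain pairs were chosen after seeing the data. Dim probes limit what can be read of Itga1, Itga4 and Itgb8 transcripts.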
